A study of Gallus gallus with 16 samples.

Results

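Pituitary glands of chicken embryos at embryonic day 12 (E12) were compared with glands at embryonic day 10 (E10), the first interval of a time course that also covers days 14 and 17 (E14 and E17). The comparison used the 4 arrays titled E12 and the 4 arrays titled E10, which are 8 of 16 arrays in all. Each E12 sample was a pool of glands from 8 embryos and each E10 sample a pool from 16 embryos. The embryos were incubated at 37.5 °C and received no treatment that the labels mention, and the labels name no strain, sex or genetic change. On each array, amplified RNA of 1 pool of glands, labelled with Cy3, competed with a Cy5-labelled reference that held an equal share of all 16 samples. Spots are called rows here, after the deposited table, and every value is a scaled log2 ratio of sample over reference: 0 is the level of the reference, and a difference of 1 would be a doubling if the scaling had left the logarithms as measured. Of 7200 rows, 7153 had a value on at least 3 of 4 arrays at each of the ages E12 and E10 and were compared.

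The anterior pituitary makes its hormones in separate cell types, which arise from shared progenitors in a set order during embryonic life. In birds, cells making the corticotropin precursor appear early, thyrotrophs, which make the hormone that drives the thyroid gland, follow, and growth hormone cells (somatotrophs) and prolactin cells (lactotrophs) come later. Lineage factors such as PIT1 (POU1F1) act in thyrotrophs, somatotrophs and lactotrophs alike. The series' title names these cell types as the subject. The platform annotation used here names only 54 rows, all as STUB1, and leaves 7146 unnamed. No hormone, lineage factor or marker of another tissue could be looked up, so the purity of the glands was not checked, and rows are given by their number in the table. RNA came from whole glands, in which more cells of a type and more RNA per cell cannot be told apart.

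Few rows passed the test, and most of those that did were higher at E12 and far below the reference at E10. With limma (moderated test, Benjamini-Hochberg adjusted p below 0.05 over 7153 rows, all 16 arrays in the fit), 28 rows changed, which is 0.391% of the rows. Of them, 21 rose (0.294%) and 7 fell (0.0979%). The 21 rises were of 0.54 to 1.21, with a median of 0.72, and the 7 falls had a median of -0.44 and reached -0.69. Over all rows tested, the median difference was -0.01, the middle 50% of the rows lay between -0.10 and 0.09, and the 1st and 99th percentiles were -0.39 and 0.52.

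**Figure D1:**
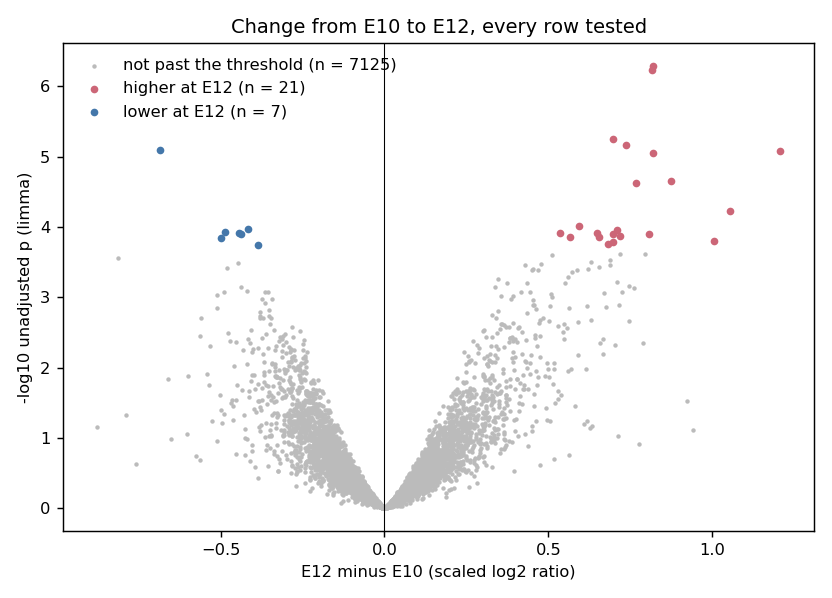
Difference between the E12 and E10 means (x axis, scaled log2 ratio) against -log10 of limma's unadjusted p (y axis) for each of 7153 rows; coloured points are the 21 rows that rose and the 7 that fell past an adjusted p of 0.05. The right arm reaches further, to 1.21, than the called rows on the left, which end at -0.69.

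The upper tail was longer than the lower. A difference of 0.5 or more was measured for 83 rows (1.16%), of which 21 passed the test, and one of -0.5 or less for 21 rows (0.294%), of which 1 passed. The 3 rows with a difference above 1 (0.0419%) were all called, and no row had one below -1. Large differences were not always called: the largest that missed the threshold were 0.94 and -0.88. The median standard error of a difference was 0.12 and the median 95% confidence interval reached 0.25 to either side, while the smallest difference called was 0.39. In 251 rows all 4 E12 arrays lay above all 4 E10 arrays (3.56% of the 7042 rows with all values), and in 266 rows all lay below (3.78%). At an unadjusted p below 0.05 there were 683 rows (9.55%).

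The count of 28 changed with most single arrays left out and with settings. Without E12 replicates 1, 2, 3 and 4 it was 21, 2, 24 and 4. Leaving out E10 replicates 1, 2, 3 and 4 gave 4, 3, 7 and 11. Each of these fits had 1 array fewer. It was 60 with array weights, 9 with a trended and robust prior, 7 without moderation and 4 after quantile normalization. On E12 replicates 3 and 4, as on E14 replicates 3 and 4, 39 to 45 of the first 45 rows were blank. With a term for those arrays 5 rows were called and without those arrays limma called 0 (837 at an unadjusted p below 0.05).

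Row 5598 had the largest change. It stood at -0.43, -0.14, -0.51 and 0.04 on the E12 arrays, against -1.48, -1.63, -1.49 and -1.29 on the E10 arrays. Every E12 array lay above every E10 array, with a gap of 0.78 between the nearest. The means were -0.26 ± 0.25 at E12 and -1.47 ± 0.14 at E10 (SD, n = 4 each), so the row was far below the reference at E10 and close to it at E12. The rise was 1.21 (SE 0.19, 95% interval 0.80 to 1.62, limma adjusted p = 0.00914). Without E12 replicate 2 or 4 or E10 replicate 1 or 2 the adjusted p was 0.0535 to 0.0606. The row's mean was 0.30 ± 0.51 at E14 and 0.51 ± 0.23 at E17. The further difference of 0.57 between E14 and E12 did not pass the test (limma adjusted p = 0.257).

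Row 5011 was the second largest rise and was less even among the E12 samples. Its values were -0.91, -0.11, -0.84 and -0.04 on the E12 arrays, against -1.36, -1.43, -1.65 and -1.69 on the E10 arrays. Replicates 2 and 4 at E12 were close to the reference and replicates 1 and 3 lay about midway to the E10 level, yet the ages did not overlap. The means were -0.48 ± 0.46 at E12 and -1.53 ± 0.16 at E10 (SD, n = 4 each). The rise was 1.05 (SE 0.20, 95% interval 0.63 to 1.48, limma adjusted p = 0.0423). The means of -0.04 ± 0.39 at E14 and 0.25 ± 0.18 at E17 were higher still, by steps that did not pass the test (0.44 from E12 to E14, adjusted p = 0.477, and 0.29 from E14 to E17, adjusted p = 0.625). It lost the threshold without E12 replicate 2 (adjusted p = 0.150), without E12 replicate 4 (0.183) and without any 1 of the E10 arrays (0.0836 to 0.138).

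Row 693 had the largest fall past the threshold. It stood at -0.43, -0.17, -0.17 and -0.13 on the E12 arrays, against 0.55, 0.53, 0.25 and 0.51 on the E10 arrays. All E12 arrays were below the reference and all E10 arrays above it. The means were -0.22 ± 0.14 at E12 and 0.46 ± 0.14 at E10 (SD, n = 4 each), and the row fell by 0.69 (SE 0.11, limma adjusted p = 0.00914). Without E12 replicate 2 or E10 replicate 1 or 2 the adjusted p was 0.0546 to 0.0575. The row was at -0.45 ± 0.13 at E14 and -0.39 ± 0.19 at E17, below the reference as at E12.

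Row 6600 was the second largest fall past the threshold. It stood at -0.16, -0.08, -0.40 and -0.04 on the E12 arrays, against 0.56, 0.38, 0.14 and 0.24 on the E10 arrays. The ages were 0.18 apart at their nearest arrays, a narrower gap than in the other named rows. The means were -0.17 ± 0.16 at E12 and 0.33 ± 0.18 at E10 (SD, n = 4 each), a fall of 0.50 (SE 0.10, limma adjusted p = 0.0423). At E14 and E17 it was at 0.03 ± 0.09 and -0.04 ± 0.09, between the E10 and E12 levels. It lost the threshold when any 1 of the 8 arrays was left out (adjusted p = 0.0627 to 0.164).

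The 4 named rows were compared between E12 arrays with and without the blank block, each against all E10 arrays. The differences were 1.23 on arrays with the block and 1.18 on the others for row 5598, and 1.09 and 1.02 for row 5011. They were -0.61 and -0.76 for row 693, and -0.55 and -0.45 for row 6600. In each of these rows all E12 arrays lay beyond all E10 arrays, so both pairs had to show the same direction. That shared direction is therefore no test of the blank block. Without the blank-block arrays none of the 4 passed the threshold, with 2 arrays left at E12 (limma adjusted p = 0.143 to 0.234).

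**Figure D2:**
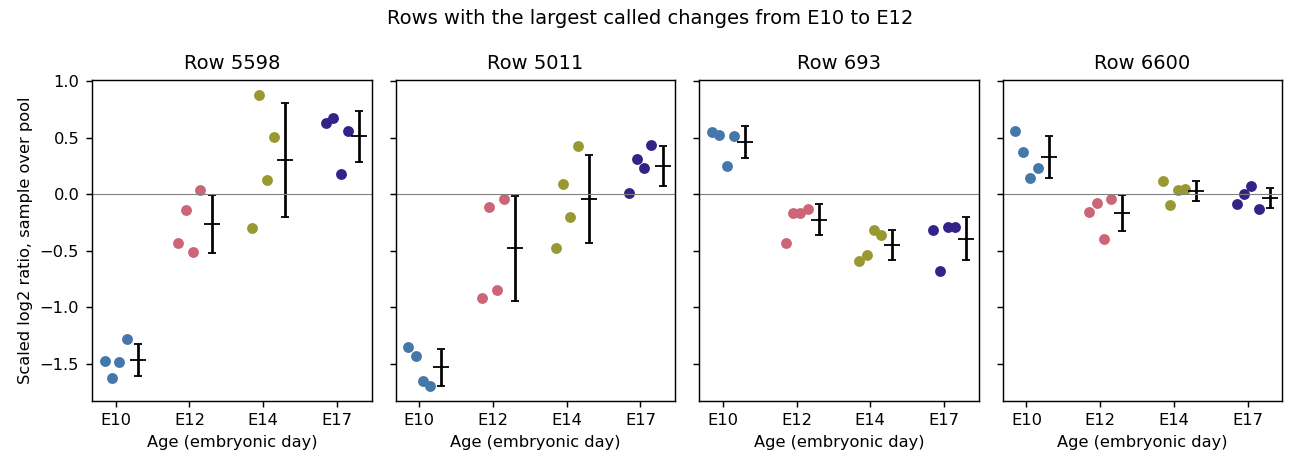
Scaled log2 ratio (y axis) of the rows with the largest called rises (5598 and 5011) and falls (693 and 6600) on each of the 4 arrays at each age (x axis); black marks are means with SD (n = 4). The E12 points are clear of the E10 points in every panel, and the means of rows 5598 and 5011 are higher again at E14 and E17 while row 6600 lies nearer the reference.

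The remaining 19 rows that rose did so by 0.54 to 1.01, and the 2 with the lowest adjusted p (0.00208) rose by 0.82 each. Of the 21, 19 had a mean at or below -0.75 at E10. Their means lay between -0.48 and -0.13 at E12, against -1.53 to -0.77 at E10, so they were below the reference at both ages and nearer to it at E12. In the older glands their means were -0.05 to 0.33 at E14 and 0.16 to 0.76 at E17. A level at or below -0.75 at E10, a limit set after the values were seen, was found in 112 of the 7153 rows tested. Of these, 19 were the called rises above, so most rows with a low start were not called. The E10 level also enters the call, so the low start of called rises is in part fixed by the choice.

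The other 2 rows that rose were above the reference at E12, with means of 0.19 and 0.44, against -0.34 and -0.30 at E10. They were also the 2 rows whose mean was lower at E17 than at E12. One of them had its highest mean at E12, and the other stood at 0.53 at E14, past which it fell by 0.49 to E17, a step that passed the test of E17 against E14. In 18 of the 21 rows the means stood in the order of the 4 ages. The first step of that order, E12 above E10, was fixed by the call. The share of all rows in that order is not given here.

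The 19 rows with a low start were alike over the arrays. Over all 16 arrays, the median correlation between 2 of them was 0.95 (171 pairs, 0.82 to 1.00), and it was at least 0.9 for 160 pairs. The age trend by which they were called enters these values. With each age's mean taken away, the median was 0.62 (-0.12 to 0.95). No such value was taken for uncalled rows, so this likeness is not shown to be particular to the 19. The rows share arrays, samples and the reference, and no clone identity was used here, so it is not known how many separate transcripts they stand for. For the 7 rows that fell, the medians were 0.63 and, with age means taken away, 0.11 (21 pairs, -0.57 to 0.50).

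The rows that fell were close to the reference or below it at E12 and above it at E10. Their means lay between -0.28 and 0.04 at E12, 6 of 7 below 0, against 0.14 to 0.48 at E10. All 7 had their highest mean at E10, which the call fixed in part, as it set E10 above E12. How many of all rows were highest at E10 is not given here. The lowest mean came at E12 in 4 of them, at E14 in 1 and at E17 in 2, and in 2 of the 7 each age was lower than every younger one.

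**Figure D3:**
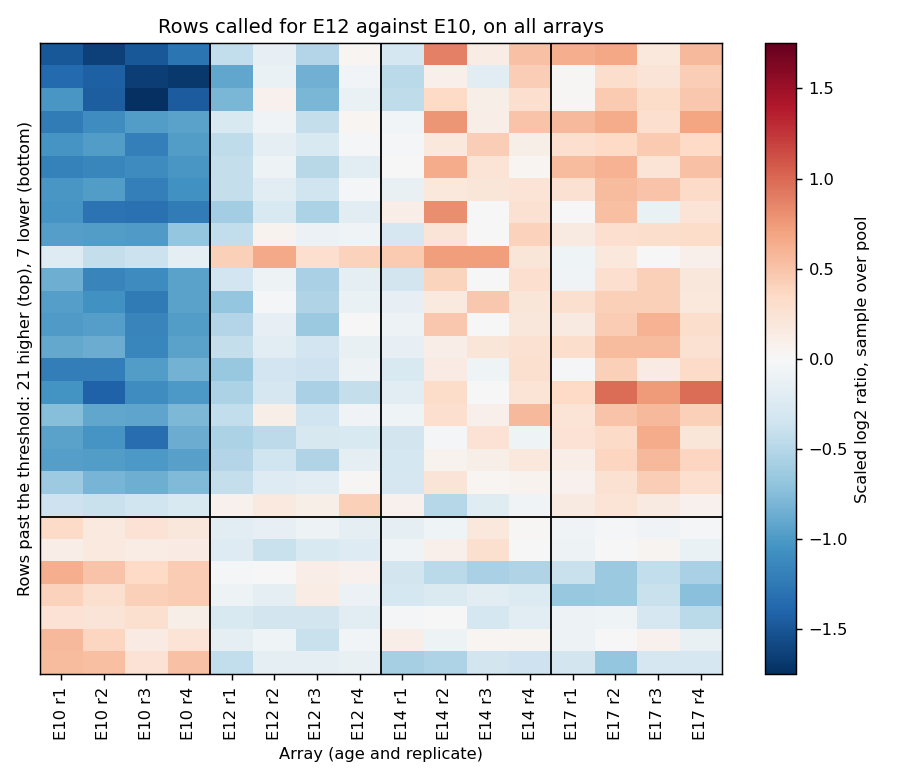
Scaled log2 ratio (colour, blue below and red above the reference) of the 28 called rows, ordered by the size of their change, on all 16 arrays (x axis, grouped by age). All 21 rows that rose have lower means at E10 than at E12. In 19 of them the E10 mean (darker blue) is from -0.77 down to -1.53, and most of these are red at E17. The 7 that fell are red on the E10 arrays.

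The E12 samples were not equally far from the E10 level in the rows that rose. The mean of the 21 rows was -0.44, -0.10, -0.40 and -0.06 on E12 replicates 1 to 4, against -0.96, -1.06, -1.10 and -0.94 on E10 replicates 1 to 4. Replicates 1 and 3 were thus nearer to E10 than replicates 2 and 4. Their mean differences from the E10 level were 0.57 and 0.62, against 0.92 and 0.96. The arrays with the blank block, replicates 3 and 4, fell on either side of this divide, and the part of the block in it was not tested. Unevenness in the 21 rows was not particular to E12. On replicates 1 to 4 their mean was -0.15, 0.31, 0.12 and 0.25 at E14, and 0.20, 0.45, 0.36 and 0.36 at E17. Replicate 1 was the lowest of its age in 13 of the 21 rows at E12, 18 at E14 and 13 at E17, but in 2 at E10. This order was not tested. In the 7 rows that fell, the 4 E12 arrays were more alike, at -0.20, -0.18, -0.14 and -0.11, against 0.41, 0.32, 0.26 and 0.30 on the E10 arrays. The members of these lists were called from the same arrays, so the separation of the ages in them is fixed by the choice.

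In most rows the scaled values varied more among the E12 arrays than among the E10 arrays. The median SD over rows was 0.165 at E12 and 0.113 at E10 (n = 4 arrays each), and the SD was larger at E12 in 4988 of 7153 rows (69.7%). Correlations between arrays of the same age, across rows, had a median of 0.32 at E12 (6 pairs, 0.20 to 0.43) and of 0.60 at E10 (6 pairs, 0.55 to 0.65). Between an E12 and an E10 array the median was 0.37 (16 pairs, 0.23 to 0.56), no lower than between E12 arrays. Rows are not independent replicates and this difference in spread was not tested. E12 pools held 8 embryos and E10 pools 16, so age and pool size cannot be told apart in it. Each array had also been scaled to the same SD over its rows, and the part of this scaling in the difference was not tested. The wider spread was not particular to E12. In the same rows the median SD was 0.186 at E14 (pools of 4 embryos) and 0.136 at E17 (pools of 2). Correlations between arrays of the same age had a median of 0.17 at E14 and of 0.49 at E17.

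The change from E10 to E12 was then set against the later intervals. For the next interval, the difference between the 2 changes, (E12 minus E10) minus (E14 minus E12), passed limma's test in 0 of 7103 rows (357 at an unadjusted p below 0.05, which is 5.03%, and 10 past the adjusted threshold with array weights). These changes share the E12 arrays with opposite signs. Taken by itself, E14 against E12 called 56 of 7104 rows (0.788%), 49 higher and 7 lower (0.69% and 0.0985%), but the test does not show any row to have changed differently in the 2 intervals.

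The last interval, E17 against E14, shares no array with the first. The 2 changes differed in 40 of 7103 rows (0.563%), with the greater value in the first interval in 10 rows (0.141%) and in the last in 30 (0.422%). Of the 30, 26 rose past the threshold from E14 to E17, and none of the 30 rose past it from E10 to E12. Of the 10, 9 fell past the threshold from E14 to E17 and 1 rose past it from E10 to E12. Both lists were chosen by these same 2 changes, so such counts are in part fixed by the choice. Row 693 was among the 30: it fell between E10 and E12, and its E17 minus E14 difference was 0.06 (difference of the changes -0.74, SE 0.16, limma adjusted p = 0.0362).

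Rows called in the last interval were then read in the first. Of 7107 rows, 113 (1.59%) were called between E17 and E14, 62 higher and 51 lower (0.872% and 0.718%). Among the 61 late-rising rows also tested here, the E12 minus E10 difference had a median of -0.08, was above 0 in 16 rows and was called, as a rise, in 1 (1.64%). Among the 51 late-falling rows, the median was -0.04 and 1 (1.96%) rose past the threshold, the row above that was highest at E14. Over all rows, 0.294% rose past the threshold, 48.3% of the differences were above 0 and the median was -0.01; single rows are too few to set either share apart from this. The 61 late-rising rows averaged -0.67 ± 0.06 (E10), -0.74 ± 0.07 (E12), -0.37 ± 0.11 (E14) and 0.70 ± 0.06 (E17) (SD over arrays, n = 4). The 21 rows that rose early averaged -1.01 ± 0.08 (E10), -0.25 ± 0.20 (E12), 0.13 ± 0.21 (E14) and 0.35 ± 0.10 (E17).

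In the other direction, 19 of the 21 early-rising rows had a higher mean at E17 than at E14, with a median step of 0.24. Among the 21, 1 (4.76%) passed that test as a rise and 1 as a fall, against 0.872% and 0.718% of all rows. Single rows are too few to set these shares apart. Of the 7 rows that fell early, 6 had a lower mean at E17 than at E14, and none passed. Over all rows tested in both intervals, 49.0% were higher at E17 than at E14 and the median step was 0.00.

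**Figure D4:**
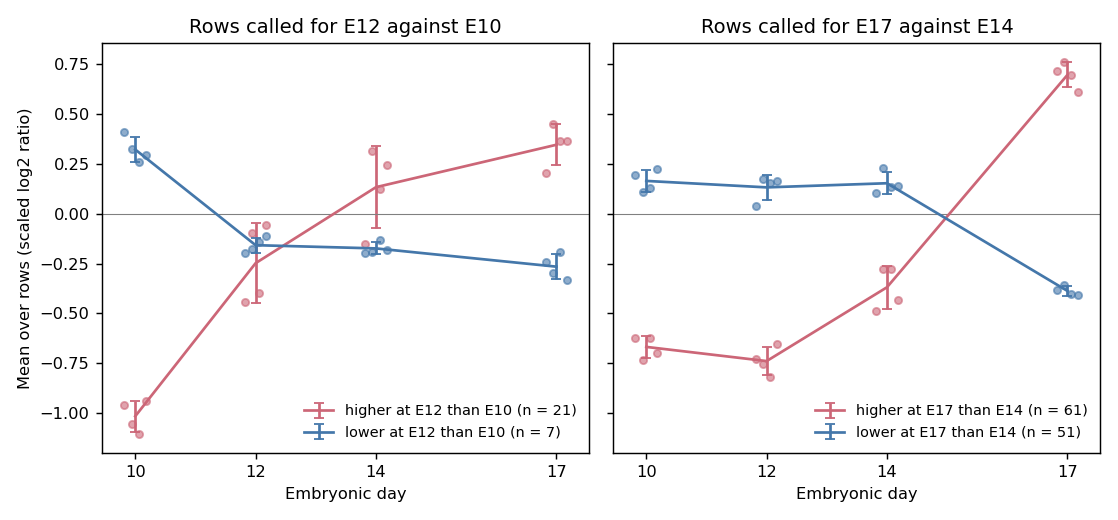
Mean over rows (y axis, scaled log2 ratio) on each array (points) and at each age (lines, with SD over 4 arrays) by embryonic day, for rows called between E12 and E10 (left: 21 higher, 7 lower) and rows called between E17 and E14 (right: 61 higher, 51 lower). The rows that rose late were at -0.74 at E12 and -0.67 at E10, while those that rose early were at -0.25 at E12 and -1.01 at E10; each list was chosen on 2 of the ages it shows.

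None of the 54 rows annotated as STUB1, a ubiquitin ligase that acts with heat shock chaperones, was called between E12 and E10, where the share of all rows called was 0.391%, so that none of 54 is no result. Their differences ran from -0.53 to 0.53 with a median of -0.05, and 35 of 54 (64.8%) were below 0, against 51.7% of all rows; this was not tested. With so wide a range among rows annotated to 1 gene, no single change is given for it. Whether the annotation is right for these rows was not checked.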

How the data were processed

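The authors deposited 1 table of log ratios, read here as log2 of sample (Cy3) over reference pool (Cy5), for 7200 rows and 16 arrays. Per the labels, 500 ng of RNA was amplified for each sample and the pool took 2 µg of each. How spots were scanned, corrected for background, normalized and filtered is not given in the sources used here. Each deposited column was centred and scaled: array medians lay between -0.02 and 0.04 and every SD rounded to 0.261. Log base and direction are not stated. In 54 rows that varied most between ages (variance of age means above 0.5), the sample-to-pool ratio averaged over ages had a median of 0.918 (log2 SD 0.10). With the sign turned the median was 1.49 (log2 SD 0.33), so sample over pool was kept and base 2 assumed. Arrays of different ages correlated as low as -0.37 (E10 with E17), which ages set against a pool of all ages can do. Scanner intensities were not analysed here.

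Between 7023 and 7194 rows per array held a value. The rule left out 47 rows, 39 of them among the first 45. Differences were fitted with limma 3.58.1 in R 4.3.3, with a mean per age over all 16 arrays (111 tested rows lacked a value on at least 1 of the 8 arrays; nothing was imputed), and adjusted by Benjamini-Hochberg over all rows tested. The arrays' number limits the precision. The rows named are the 2 largest rises and 2 largest falls past the threshold, since rows without a symbol were given by number only. Deviations of same-numbered arrays correlated above 0.1 in all 4 pairs of E14 with E12 arrays (0.15 to 0.44, replicate 1 highest). This pairing was seen in the data and not in the labels. The correlations were -0.01 to 0.30 for E17 with E12 arrays and 0.03 to 0.30 for E17 with E14 arrays. Only 1 of 4 pairs of E12 with E10 arrays was above 0.1, and no block was used. The row variance in the test of E12 against E10 comes from all 16 arrays, however. Over all ages, 13 of 24 same-numbered pairs were above 0.1, so this likeness enters that test too. With the replicate number as a block, its count was 65 in place of 28. The counts called in the later intervals also come from the fit without a block. The fit was tested on simulated data with independent noise, which does not cover likeness between arrays or between rows. Comparison, lists and alternatives were chosen with earlier results of these data known.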

Additional observations from a re-analysis of the deposited data

Results flagged for a closer look

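Among 32 groups of 4 arrays, 1 array stood far apart in 4 groups; chance alone does so in about 1 group of 20. Row 693 had 3 of them: E10 replicate 3 at 0.254 (others 0.514 to 0.553), E12 replicate 1 at -0.429 (others -0.167 to -0.133) and E17 replicate 2 at -0.682 (others -0.316 to -0.287). The rows that fell from E14 to E17 averaged 0.036 on E12 replicate 1, against 0.153 to 0.172 on the other E12 arrays.

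The change from E10 to E12 differed from the change from E14 to E17 in 40 rows by limma's test of the difference itself.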

How the results depend on the processing

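The count of 28 rows changed between E12 and E10 was 24 with array medians subtracted, 28 in rows with all values and 32 in a fit of these 8 arrays alone, of which 20 were among the 28. It was 4 after quantile normalization, 7 without moderation, 9 with a trended and robust prior, 5 with a term for the blank-block arrays, 0 without those 4 arrays and 60 with array weights. With 1 array left out it ranged from 2 to 24. Fewer arrays entered these last fits and those without the blank-block arrays; for the other settings the cause was not tested. No clear pairing of E12 with E10 samples by replicate number was seen, and 4 pairs cannot exclude one. Deviations of same-numbered arrays from their age means correlated at -0.08, 0.09, 0.21 and 0.01. Replicate 3 alone correlated best with its own number from both sides. With the replicate number as a block, the count was 65 and included all 28.

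The count of rows whose change differed from the next interval was 10 with array weights and 1 with the blank-block term, and otherwise 0 (0 to 0 with 1 array left out). The count against the last interval (40) was 25 without the blank-block arrays, 27 with a term for them and 52 with array weights. With that term 3 rows had the greater value in the first interval, in place of 10. The count was 26 to 37 with 1 array left out. It was 40 with the replicate block, of which 36 were among the first 40. Over 10 other alternatives, row 693 kept the threshold in 9, row 5598 in 6, row 5011 in 5 and row 6600 in 3, and over the 8 runs with 1 array left out in 5, 4, 2 and 0. With 4 arrays at each age and a median standard error of 0.12, many smaller changes could be missed.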
